A study of Mus musculus with 2 samples.

Results

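The genes described here are 10 genes of oxidant defence: the transcription factor Nfe2l2 (NRF2), its inhibitor Keap1, 6 genes known as NRF2 targets (Nqo1, Gclm, Gclc, Txnrd1, Srxn1 and Prdx1) and the superoxide dismutases Sod1 and Sod2. They were chosen by gene symbol, and all 10 were found among 55536 annotated mouse genes, together with 46 annotated transcripts. The cells were macrophages grown from bone marrow of C57BL/6J mice, treated with 100 ng/ml lipid A, the TLR4-binding part of bacterial lipopolysaccharide, for 12 h, then kept without it for 12 h, and given 100 ng/ml lipid A again for 75 min. RNA of the cytosolic fraction, depleted of ribosomal RNA, was sequenced in 2 replicates of this 1 group. The labels name no genotype change, record neither age nor sex, and give both replicates 1 donor code. Untreated and singly treated cells were not analysed here, and a level is therefore no response to lipid A.

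NRF2 is held in the cytosol by KEAP1, which hands it to a ubiquitin ligase for degradation. Oxidants and electrophiles modify cysteines of KEAP1, and NRF2 then accumulates, enters the nucleus, pairs with small MAF proteins and binds antioxidant response elements. Because much of this control acts on the protein, the messages of Nfe2l2 and Keap1 do not measure NRF2 activity. In macrophages these genes belong to the defence against the superoxide and peroxide that the cells themselves produce.

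Expected counts on annotated genes summed to 64187226 in replicate 1 and 49429893 in replicate 2. Levels are given in TPM, a share of all transcripts that corrects for length and lets genes be set side by side. The authors deposited one set of values from a transcriptome alignment, used here unless stated, and another made from the reads, called the read-based table. A gene was called high if it reached 100 TPM in both replicates, moderate if it reached 10 TPM, low if it reached 1 TPM, and otherwise not detected. All 8 macrophage markers examined were moderate or high, and the 24 markers of other lineages were each under 1 TPM in both replicates, with 8 at no count at all. The summed level of these 24 markers was 0.87 TPM in replicate 1 and 2.34 TPM in replicate 2, and that of the macrophage markers was 4863 and 5494 TPM.

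The 10 genes spanned a wide range, from Prdx1 and Sod2 among the most abundant messages to Nqo1 at the edge of measurement. High levels were found for 2 of the genes, moderate levels for 5 and low levels for 2, and 1 was not detected. These bands depend on the scale: with TPM rescaled to protein-coding genes 5 of the 10 reached 100 TPM, and in the read-based table the mean levels were 1.54-fold to 2.04-fold lower. Protein-coding genes as a whole held 17.8% and 11.6% of TPM in the read-based table in replicates 1 and 2, against 29.9% and 26.2% in the alignment-based one. For comparison, 4.38% of the 8812 detected protein-coding genes were high and 39.0% reached 10 TPM. The median of the 10 genes was 32.2 TPM in replicate 1 and 22.8 TPM in replicate 2, and that of detected protein-coding genes was 8.03 and 7.32 TPM.

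**Figure D1:**
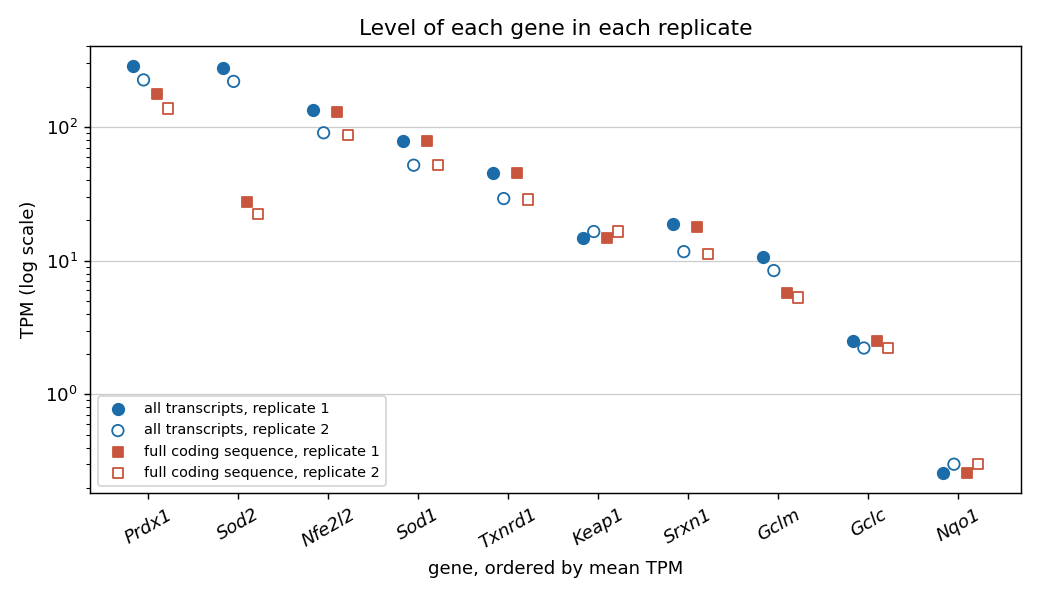
Level of each gene in TPM (vertical axis, log scale) in replicate 1 (filled) and replicate 2 (open), for all transcripts of the gene (circles) and for transcripts that carry the full annotated coding sequence (squares). Prdx1 and Sod2 lie together at the top by all transcripts, and the Sod2 squares, at 27.6 and 22.3 TPM, lie below those of Sod1.

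Nfe2l2, which encodes NRF2, stood at 133 TPM in replicate 1 and 90.5 TPM in replicate 2, a mean of 112 ± 30.3 (SD, n = 2). It was above 96.1% and 94.8% of detected protein-coding genes in the 2 replicates. Keap1, which encodes the adaptor that marks NRF2 for degradation, stood at 14.7 and 16.5 TPM, a mean of 15.6 ± 1.29 (SD, n = 2). Nfe2l2 thus exceeded Keap1 9.08-fold in replicate 1 and 5.48-fold in replicate 2. The log2 ratio of Keap1 to Nfe2l2 was -2.82 ± 0.52 (SD, n = 2), so the direction was the same in both replicates while its size varied. Nfe2l2 lies on chromosome 2 from 75675513 to 75704641 and Keap1 on chromosome 9 from 21229730 to 21239361 (mm10, both on the minus strand).

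Sod2, the manganese superoxide dismutase of mitochondria, was one of the most abundant of the 10 genes, at 277 TPM in replicate 1 and 219 TPM in replicate 2, a mean of 248 ± 40.5 (SD, n = 2). Sod1, the copper-zinc dismutase of the cytosol, stood at 79.2 and 51.8 TPM, a mean of 65.5 ± 19.4 (SD, n = 2). Counted over all transcripts, Sod2 exceeded Sod1 3.49-fold and 4.23-fold in replicates 1 and 2. This order turned when only transcripts with the full coding sequence were counted. Sod1 then exceeded Sod2 2.87-fold and 2.32-fold, since Sod2 kept 27.6 and 22.3 TPM and Sod1 kept 79.2 and 51.7 TPM. In the read-based table Sod1 exceeded Sod2 3.35-fold and 2.61-fold on the same count of coding transcripts. In both tables this reversed order depends on how reads were divided among Sod2 transcripts that share most of their sequence. That division was not checked. Sod1 overlaps Scaf4 on the opposite strand, a gene at 5.59 and 5.66 TPM. The strandedness of the libraries is not given in the sources used here, so reads of the shared stretch cannot be told apart. Keap1, Gclm, Txnrd1 and Nfe2l2 also overlap annotated genes, each of those under 1 TPM in both replicates. Sod2 lies on chromosome 17 from 13006846 to 13040063 and Sod1 on chromosome 16 from 90220754 to 90226329 (mm10, both on the plus strand).

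The Sod2 reads were divided among 8 annotated transcripts, and the single transcript with the full coding sequence of 222 residues held a small part of the gene's TPM. Sod2-201, that transcript, held 9.96% and 10.2% of Sod2 TPM in replicates 1 and 2. Sod2-207, annotated as a processed transcript without a coding sequence, held 51.9% and 52.2%, and the retained-intron transcripts Sod2-204 and Sod2-203 held 29.6% and 29.5%, and 7.52% and 6.79%. The replicates differed little in this split. By expected counts the picture was different, since Sod2-201 is 5861 bases long and Sod2-207 is 1138 bases long: Sod2-201 held 47.2% and 47.7% of counts and Sod2-207 held 39.95% and 39.5%.

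The transcripts of Sod2 share most of their sequence. Of the 1138 bases of Sod2-207, 1091 lie within exons of Sod2-201, and its exons cover 643 of the 666 coding bases. Sod2-207 ends 591 bases into the last exon, which is 5109 bases long in Sod2-201. The part of Sod2-207 that Sod2-201 lacks is a run of 47 bases that extends exon 2 of Sod2-201 into the following intron, on chromosome 17 from 13008387 to 13008433 of mm10. These sequences are shown because they are where the model with most of the TPM leaves the coding one. Each gives 20 bases of the shared exon and 20 bases of the next exon, 5′ to 3′ on the plus strand from the GENCODE M21 transcripts, and capitals mark the 47 extra bases.
Sod2-201: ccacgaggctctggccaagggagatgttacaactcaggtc
Sod2-207: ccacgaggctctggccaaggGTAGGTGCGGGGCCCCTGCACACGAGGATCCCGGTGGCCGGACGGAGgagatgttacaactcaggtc
The tables give no counts for this run alone, so how many reads held it was not measured. The read-based table put 50.5% and 51.3% of Sod2 TPM on Sod2-207 and 7.68% and 8.19% on Sod2-201. It covers the same 2 libraries and annotated transcripts, so it is no independent check of this split.

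The thioredoxin and peroxiredoxin branch held the highest gene of the 10. Prdx1, a peroxiredoxin that reduces hydrogen peroxide, stood at 285 TPM in replicate 1 and 225 TPM in replicate 2, a mean of 255 ± 42.2 (SD, n = 2). Within each replicate Prdx1 was slightly above Sod2, at 285 against 277 TPM and 225 against 219 TPM. Their values over the 2 replicates overlapped, with means of 255 ± 42.2 and 248 ± 40.5 TPM. Over transcripts with the full coding sequence Prdx1 stood at 176 and 138 TPM and Sod2 at 27.6 and 22.3 TPM. Txnrd1, the cytosolic selenoprotein that reduces thioredoxin, stood at 45.5 and 29.1 TPM, a mean of 37.3 ± 11.6 (SD, n = 2). Srxn1, sulfiredoxin, which repairs peroxiredoxins whose cysteine has been over-oxidised, stood at 18.9 and 11.7 TPM, a mean of 15.3 ± 5.13 (SD, n = 2). On the plus strand of mm10, Prdx1 lies on chromosome 4 from 116685544 to 116700822, Txnrd1 on chromosome 10 from 82833951 to 82897712 and Srxn1 on chromosome 2 from 152105516 to 152111376. Prdx1 exceeded Srxn1 15.0-fold in replicate 1 and 19.3-fold in replicate 2. Srxn1 and Keap1 exchanged places between the replicates and did not differ beyond their spread. The other neighbours in the order, from Sod2 and Nfe2l2 down to Gclc and Nqo1, had replicate values that did not overlap.

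Glutathione synthesis was represented by the subunits of glutamate-cysteine ligase, the rate-limiting enzyme of the pathway. Gclm, the modifier subunit, stood at 10.6 TPM in replicate 1 and 8.43 TPM in replicate 2, so it reached 10 TPM in replicate 1 alone. The authors' TPM intervals for it, 9.79 to 12.0 in replicate 1 and 7.81 to 10.3 in replicate 2, both included 10 TPM. Gclc, the catalytic subunit, stood at 2.52 and 2.22 TPM, a mean of 2.37 ± 0.212 (SD, n = 2), on 906 and 655 expected counts. Gclm lies on chromosome 3 from 122245557 to 122270732 and Gclc on chromosome 9 from 77754535 to 77794485, both on the plus strand. Gclm exceeded Gclc 4.19-fold and 3.80-fold, a log2 ratio of 2.00 ± 0.10 (SD, n = 2), and the 2 genes did not overlap. Over transcripts with the full coding sequence the excess was 2.25-fold and 2.38-fold.

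Nqo1, a quinone reductase commonly used as a readout of NRF2 activity, was the lowest of the 10 genes and was under 1 TPM in both replicates. It stood at 0.26 TPM in replicate 1 and 0.30 TPM in replicate 2, on 39 expected counts (exact Poisson 95% interval 27.7 to 53.3) and 37 (26.1 to 51.0). The read-based table gave it 51 and 48 counts, so Nqo1 was counted in both libraries although it lay below the detection level used here. The Poisson intervals cover counting error only. Nqo1 lies on chromosome 8 from 107388225 to 107403206 of mm10, with 1 annotated transcript.

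Besides Sod2, only Prdx1 and Gclm had less than 90% of their TPM in transcripts with the full coding sequence, and 7 of the 10 genes had at least that share in both replicates and in both tables. Prdx1-204, a coding transcript of 2294 bases, held 61.7% and 60.9% of Prdx1 TPM, and Prdx1-205, a model with an incomplete coding end, held 37.0% and 37.3%. The tables differed on Prdx1-202, which has the same coding sequence as Prdx1-204: it held 0.24% and 0.46% in the alignment-based table and 25.4% and 23.7% in the read-based table. The sum of full coding transcripts of Prdx1 was close in both tables, at 62.0% and 61.3% against 63.2% and 64.6%.

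Gclm was divided among several transcripts. Gclm-206, a coding transcript of 1002 bases, led with 41.4% and 48.4% of TPM, Gclm-203, a model with an incomplete coding start, held 36.1% and 30.2%, and Gclm-201, of 5589 bases, held 12.4% and 14.2%. By expected counts Gclm-201 led instead, with 49.6% and 53.8%. In the read-based table Gclm-202, a processed transcript, also reached 11.0% in replicate 1.

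Keap1 and Txnrd1 were divided among transcripts that encode the same protein and differ outside the coding sequence. Keap1-205 and Keap1-201 both encode 624 residues and held 56.8% and 38.6% of Keap1 TPM in replicate 1 and 62.5% and 32.0% in replicate 2. That shift of Keap1-201 and the one of Gclm-206 were the 2 largest between replicates among 17 transcripts at 10% or more, and the largest was 7.08 percentage points, for Gclm-206. Txnrd1-201, Txnrd1-208 and Txnrd1-206, which share a coding sequence of 499 residues, held 66.3%, 24.0% and 8.73% of Txnrd1 TPM in replicate 1 and 68.0%, 20.4% and 9.85% in replicate 2. In the read-based table Txnrd1-208 and Txnrd1-206 held more, at 33.7% and 14.0% in replicate 1.

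A single coding transcript led each of the other genes. Sod1-201, of 154 residues, held 99.98% and 99.95% of Sod1 TPM. Nfe2l2-201, of 597 residues, held 96.5% and 96.6%, and Srxn1-201, of 155 residues, held 94.0% and 96.4%. Gclc-201 and Nqo1-201 held 100% in both replicates of the alignment-based table. In all 10 genes the leading transcript by TPM was the same in both replicates and both tables.

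**Figure D2:**
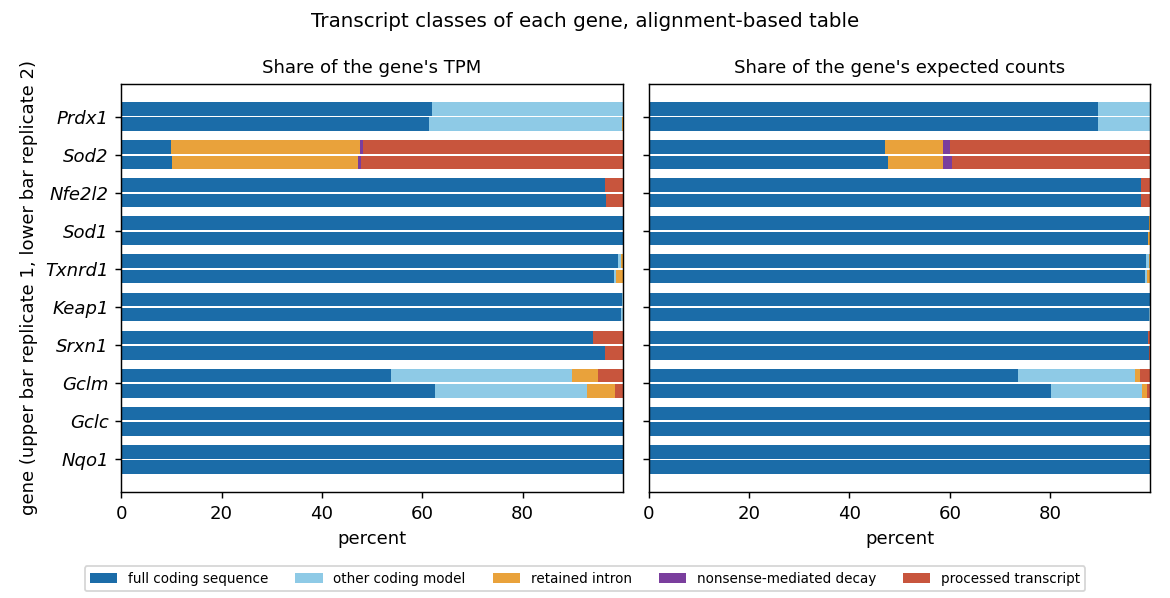
Share of each gene's TPM (left) and expected counts (right), in percent, by class of annotated transcript, with the upper bar for replicate 1 and the lower for replicate 2. Full coding sequence means the same coding exons as the annotation's principal transcript, which for Sod2 is 9.96% and 10.2% of TPM and 47.2% and 47.7% of counts.

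No gene of the 10 differed 2-fold between the replicates, but Nfe2l2, Sod1, Txnrd1 and Srxn1 were all lower in replicate 2 by similar amounts. A two-sided exact binomial test with Benjamini-Hochberg adjustment compared the 2 libraries, not conditions, over 13298 genes with scaled library sizes. It called 735 genes, 5.53% of those tested, at an adjusted p under 0.05 and at least 2-fold, and 0 of the 10 genes, with 8 of them at an unadjusted p under 0.05 (60.2% of all genes tested were). In bulk RNA, fewer cells with a message and less message per cell cannot be told apart. The labels do not say whether the replicates came from separate animals, so the differences between them may be technical, and the p-values hold counting error only.

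Without the fold limit 8 of the 10 genes passed the adjusted threshold, 7 lower and 1 higher in replicate 2. Over all genes tested 56.4% passed, 31.1% lower and 25.3% higher, so passing this test was common. Srxn1 was 1.49-fold, Sod1 1.46-fold, Txnrd1 1.45-fold and Nfe2l2 1.39-fold lower in replicate 2 after scaling, with log2 ratios from -0.57 to -0.47. These 4 lay in the lowest 9.15% to 12.6% of all genes tested. Prdx1 and Sod2 were 1.20-fold and 1.17-fold lower. Keap1 was the gene that passed in the other direction, with a log2 ratio of 0.26 (exact binomial test, adjusted p = 1.0e-16). Gclc and Nqo1 did not pass, with log2 ratios of -0.09 and 0.30 (exact binomial test, adjusted p = 0.31 and 0.51).

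Under preset amounts of variation beyond counting, not estimated from these libraries, none of the 10 genes passed. At a preset coefficient of variation of 0.1, edgeR's exact test passed 7.57% of genes at any fold and 0 of the 10 genes, of which 4 had an unadjusted p under 0.05 (19.7% of all genes tested did). Srxn1 had the lowest adjusted p, at 0.066. With a coefficient of 0.2 it passed 1.04% of genes and 0 of the 10, with 0 at an unadjusted p under 0.05 (5.92% of all genes tested). All 138 genes that passed at 0.2 were at least 2-fold apart. None of the 10 was, so that count adds nothing about them, and 0 of 10 at 0.1 is near the share over all genes. Replicate 2 was also the shallower library, and protein-coding genes held 26.2% of its TPM against 29.9% in replicate 1. The part of either in these differences was not tested.

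**Figure D3:**
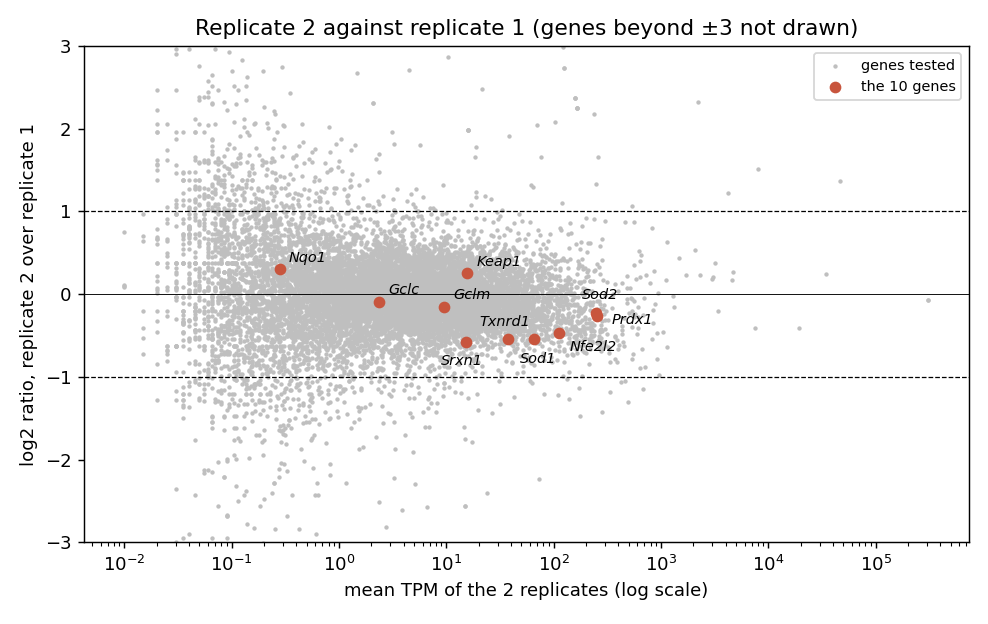
Log2 ratio of replicate 2 to replicate 1 from scaled expected counts (vertical axis) against mean TPM (horizontal axis, log scale) for all genes tested (grey) and the 10 genes (red), with dashed lines at 2-fold; 40 genes beyond the vertical limits are not drawn. All 10 genes lie between the dashed lines, from Srxn1 at -0.57 to Nqo1 at 0.30.

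The alignment-based and read-based tables put the 10 genes in the same order within each replicate. With both rescaled to protein-coding genes, the read-based value of Prdx1 was above the alignment-based one by 0.32 and 0.27 on the log2 scale and that of Gclm by 0.29 and 0.32. The median over detected protein-coding genes was -0.02 and 0.01. The authors' posterior standard deviation of the count was at most 3.73 counts for any of the 10 genes, which is under 1% of the count in each case. It is not the error of the TPM, and the authors' TPM interval of Gclm included 10 TPM in both replicates.

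Antioxidant response elements were looked for in the RefSeq promoter windows of these genes, because 6 of them are known as NRF2 targets. Each window runs from 250 bases before to 50 after a start site on GRCm38.p6, the mm10 assembly. Windows were found for 9 of the 10 genes, with none for Gclc, and Txnrd1 had 3. The core TGACNNNGC was searched on both strands, which reads GCNNNGTCA in the gene's direction when it lies on the other strand. It was present in 6 of the 9 genes, in 1 window each, and in 12.4% of all 32851 windows. At the level of genes, 17.4% of detected protein-coding genes with a window held it. The sites are printed because they show where the core lies next to these starts, 5′ to 3′ in the direction of the gene, with the core in capitals and 10 bases on each side.
Nfe2l2: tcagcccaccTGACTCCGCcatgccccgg
Srxn1: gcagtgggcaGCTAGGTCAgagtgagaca
Gclm: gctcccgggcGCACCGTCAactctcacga
Prdx1: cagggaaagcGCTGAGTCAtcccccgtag
Txnrd1: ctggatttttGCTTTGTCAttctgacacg
Sod1: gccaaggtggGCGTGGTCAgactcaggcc

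The core began 240 bases before the start site in Nfe2l2, 134 in Gclm, 133 in Prdx1, 92 in Txnrd1 and 56 in Sod1, and in Srxn1 it began at base 29 of the transcribed part. The printed sites lie at chr2:75704885-75704913 (minus strand), chr2:152105542-152105570, chr3:122245413-122245441, chr4:116685456-116685484, chr10:82859104-82859132 and chr16:90220696-90220724 (plus strand), in the order shown. In Prdx1 alone the core overlaps an AP-1 motif, searched as TGACTCA and TGAGTCA. Of the 3 Txnrd1 windows, the one with the core is that of transcripts with 90.4% and 89.1% of Txnrd1 TPM in replicates 1 and 2. For Gclm the leading transcript, Gclm-206, is annotated to start 111 bases downstream of the window's start site. For Sod2 the leading transcript, Sod2-207, starts 345 bases from that of its window, and transcripts starting within 100 bases of it held 40.1% and 40.4% of TPM. The windows of Nqo1, Keap1 and Sod2 did not hold these letters, which says nothing of sites elsewhere. A match is a run of letters and no measure of binding.

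Other genes of the pathway were counted in 6 lists of 52 genes. High levels were reached by 7, moderate ones by 25 and low ones by 14, and 6 were not detected. Their median was 21.5 TPM in replicate 1 and 17.6 TPM in replicate 2. Between replicates 49 of them could be tested and 2 passed at 2-fold, both lower in replicate 2 (5.53% of all genes tested passed). These were Sqstm1, 2.06-fold lower, and Slc7a11, 2.59-fold lower (exact binomial test, adjusted p = 1.9e-117). The median log2 ratio of the 49 genes was -0.12, and that of the 10 genes was -0.25, against -0.04 over all genes tested. Below 2-fold the pathway genes went in both directions. For example, Gpx1 and Gpx4 were lower in replicate 2, with log2 ratios of -0.58 and -0.52, and Hmox1 and Prdx5 were higher, with 0.43 and 0.33.

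Among the 9 partners and regulators of NRF2, 1 was high, 6 moderate and 2 low. Sqstm1, p62, an autophagy receptor that binds KEAP1, stood highest at 630 and 287 TPM in replicates 1 and 2. Nfe2l1, a related transcription factor, stood at 56.3 ± 4.59 TPM (SD, n = 2), and Rbx1 and Cul3, of the ligase that KEAP1 serves, at 40.8 ± 9.28 and 21.7 ± 2.74. Mafk, a small MAF partner, and Btrc, an adaptor of another ligase for NRF2, were lowest at 7.21 ± 1.32 and 2.64 ± 0.269.

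Among 14 genes of glutathione supply and use, 4 were high, 3 moderate, 4 low and 3 not detected. Gpx1 and Gpx4, glutathione peroxidases, stood at 294 ± 108 and 154 ± 49.5 TPM (SD, n = 2). Slc3a2, the heavy chain that cystine transporter Slc7a11 pairs with, stood at 147 ± 5.83, and Glrx, glutaredoxin, at 136 ± 8.03. Slc7a11 itself stood at 2.29 and 0.92 TPM, on 2238 and 665 expected counts. It was classed as not detected because it fell under 1 TPM in replicate 2 alone. Gsta4, a glutathione transferase, and Ggt1, which breaks down extracellular glutathione, had no counts in either replicate.

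The 11 thioredoxin and peroxiredoxin genes gave 2 high, 6 moderate, 2 low and 1 not detected. Prdx5, a peroxiredoxin, stood at 262 ± 34.6 TPM (SD, n = 2), and Txn1, thioredoxin, at 112 ± 3.61. Prdx2 and Txn2, the latter of mitochondria, stood at 67.9 ± 3.85 and 31.8 ± 6.07. Txnrd2, the mitochondrial reductase, and Txnrd3 stood at 3.69 ± 0.304 and 0.765 ± 0.106, both under Txnrd1 in each replicate.

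The remaining lists covered peroxide, NADPH and haem. Cat, catalase, stood at 27.4 ± 6.05 TPM (SD, n = 2), Ccs, the copper chaperone of SOD1, at 5.09 ± 0.368, and Sod3, the extracellular dismutase, was listed at 0 TPM on 1 and 0 expected counts. Of 6 genes listed under NADPH 5 were moderate. The highest were Taldo1 at 47.0 ± 10.3, Tkt at 44.2 ± 1.41, Pgd at 42.7 ± 0.940 and G6pdx at 32.1 ± 3.46. Idh1, a cytosolic isocitrate dehydrogenase, stood at 25.8 ± 2.42, and Me1, malic enzyme, was not detected at 0.665 ± 0.191. Of 9 genes of haem breakdown and other NRF2 targets 4 were moderate and 5 low. Hmox1, haem oxygenase, stood at 90.5 ± 15.1, Blvrb and Blvra, biliverdin reductases, at 52.7 ± 0.615 and 34.4 ± 0.205, and Slc48a1, a haem transporter, at 41.6 and 47.3 TPM in replicates 1 and 2. Cbr3, a carbonyl reductase, and Ephx1, an epoxide hydrolase, were lowest at 1.61 ± 0.106 and 1.58 ± 0.290.

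**Figure D4:**
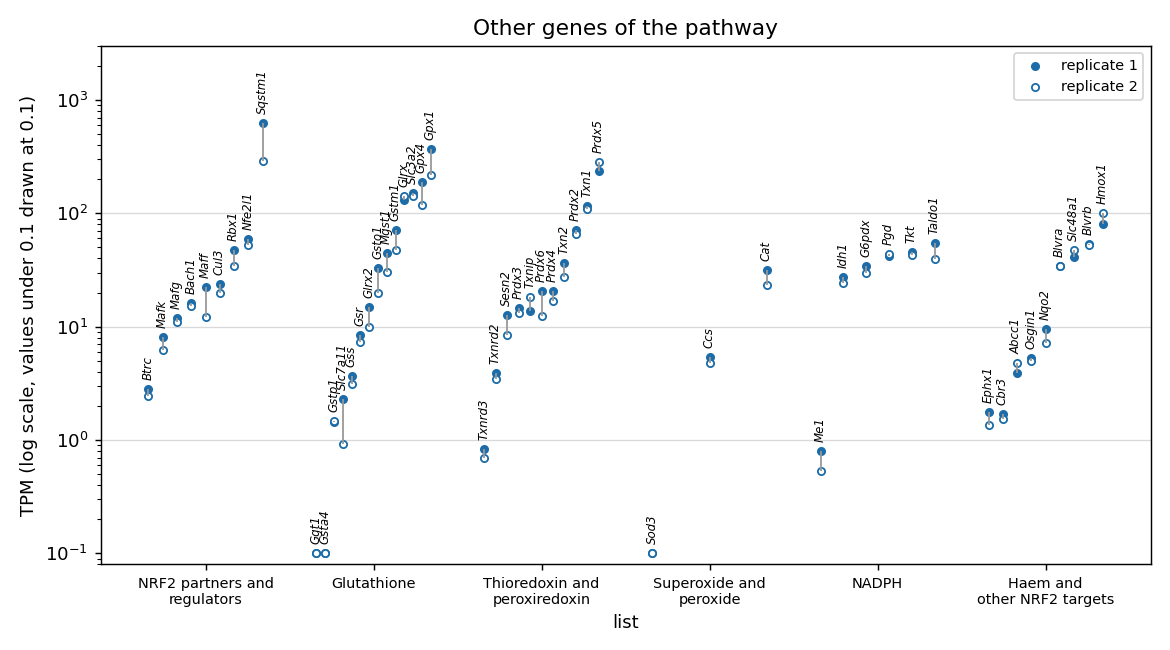
Level in TPM (vertical axis, log scale, values under 0.1 drawn at 0.1) of 52 other genes of the pathway in replicate 1 (filled) and replicate 2 (open), joined by a line and grouped by list (horizontal axis). Sqstm1, at 630 and 287 TPM, and Slc7a11, at 2.29 and 0.92 TPM, are the pairs more than 2-fold apart in the test.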

How the data were processed

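Cytosolic RNA, 1 µg per library, was sequenced in 2 libraries of a single group. Deposited notes name mm10 and GENCODE M21. No source used here names the aligner, the quantifiers or the strandedness.

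The authors deposited expected counts per gene and transcript, not scaled by depth, once from a transcriptome alignment and once from the reads. The deposited TPM values are corrected for effective length and share 1 fixed total over all features. Deposited percent values are the share of a gene's TPM that falls on a transcript, per the file headers.

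Expected counts were rounded and scaled by TMM in edgeR 4.0.16 (R 4.3.3). Genes with a mean count of at least 10 were tested one by one with a two-sided exact binomial test and Benjamini-Hochberg adjustment, and were called at an adjusted p under 0.05 and 2-fold. A zero count was set to a floor of 3 counts for the fold. Alternatives were edgeR's exact test at preset coefficients of variation of 0.1 and 0.2, DESeq2 1.42.0 size factors, unscaled totals, no count filter and the read-based table. Ratios between genes are log2 ratios of TPM within a library, without a test. Full coding sequence means coding exons equal to those of the annotation's principal transcript.

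The 10 genes, the lists and the tests were chosen with earlier results of these data known. Named were the 10 genes, the top 4 and bottom 2 genes by mean TPM in each list, and transcripts at 10% or more of their gene in either table. Sod2-203 and Slc7a11 were named after their values were seen.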

Additional observations from a re-analysis of the deposited data

How the results depend on the processing

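Counts of the 10 genes at 1, 10 and 100 TPM held within 1.5 times under the alternatives run, except that 5 genes in place of 2 reached 100 TPM when TPM was rescaled to protein-coding genes. Against their means, the levels of all 10 genes were 1.54-fold to 2.04-fold lower in the read-based table and 3.52-fold to 3.59-fold higher with that rescaling. With both tables rescaled to protein-coding genes, the log2 ratio of read-based to alignment-based values ran from -0.09 for Nfe2l2 to 0.32 for Prdx1, both in replicate 1. With transcripts of the full coding sequence only, chosen after seeing the data, the log2 ratio of Sod2 to Sod1 turned from 1.94 to -1.37, that of Gclm to Gclc moved from 2.00 to 1.21 and that of Srxn1 to Prdx1 from -4.09 to -3.46. In the read-based table the last 2 were 2.28 and -4.44, and the cause was not tested. With a pseudocount of 1 Gclm to Gclc was 1.63, since an added 1 TPM raises the lower gene, Gclc, by a larger factor. The part of TPM in the full coding sequence was 10.1% for Sod2, 61.7% for Prdx1 and 58.2% for Gclm, and 7.93%, 63.9% and 51.1% in the read-based table. As a share of expected counts, also chosen after seeing the data, it was 47.4%, 89.6% and 76.9%, since long transcripts take more counts per TPM. The binomial test called 735 genes between replicates, and edgeR's exact test with a coefficient of variation of 0.2 called 138. At any fold 8 of the 10 genes passed the binomial test, against 56.4% of all genes tested. With edgeR's exact test, which allows for a preset variation beyond counting, 0 passed at 0.1 and 0 at 0.2. The shares over all genes tested were 7.57% and 1.04%. None of the 10 was called at 2-fold under any of the 7 settings. In its main form the binomial test called 5.53% of all genes tested, and 0 of 10 is near that share. Leaving out a replicate leaves 1 library, with no test. No paired analysis was possible because there is 1 group. Depth limits Nqo1 most, at 39 and 37 counts.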
